A study of Mus musculus with 8 samples.

Results

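Genes of cholesterol synthesis, its sterol-controlled regulation, and cholesterol transport and turnover were examined in layer IV of mouse visual cortex. The genes were chosen by name: 32 were named, 31 were matched in the count tables out of 34980 genes, and Hmgcs1 was not analysed here. They comprised 17 synthesis genes, 5 regulators and 9 genes of uptake, efflux, storage and removal. Each gene was read from its most abundant transcript, and Msmo1 was listed under its older symbol Sc4mol. All 31 passed the filter on low counts, with 15 to 19133 counts per library.

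RNA was sequenced from layer IV tissue dissected by hand from B6D2 mice in 3 groups of 2 libraries each. The heterozygous group was Otx2 +/- in the sample labels (written Otx2 +/GFP in the series design) at postnatal day 30 (Het P30), and the other groups were Otx2 +/+ at postnatal day 100 (WT P100) and at postnatal day 30 (WT P30). Otx2 encodes a homeodomain transcription factor. Tissue of 4 mice was pooled per condition. The series lists 8 samples, and 2 heterozygous ones from day 100 were not analysed here. Whether duplicates stem from separate pools is not stated in the labels, and the p-values then measure only the spread between duplicates, which may be technical.

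The brain makes almost all of its cholesterol itself, because lipoproteins of the blood do not cross the blood-brain barrier. Acetyl-CoA is turned through mevalonate, squalene and lanosterol into cholesterol. When sterols run low in the endoplasmic reticulum, the escort protein SCAP carries SREBP transcription factors to the Golgi for activation, and INSIG proteins hold the complex back when sterols are high. Oligodendrocytes use much of the cholesterol for myelin, astrocytes pass it on in particles that carry apolipoprotein E, and neurons remove the excess by hydroxylation.

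The libraries held 11016841 to 15308781 counts at the gene level, and 15841 genes were tested. Duplicate libraries were not identical within counting error, their chi-square over genes being 4.17 to 5.40 per degree of freedom. Neuron markers were abundant in every library (10 genes, summed to 8255 to 9343 CPM, that is, counts relative to the TMM-scaled library total), as were 4 layer 4 markers (764.1 to 894.6 CPM). Both heterozygous libraries were high in Xist (784.8 and 924.4 CPM, against 0.264 to 0.639 in the 4 wild-type libraries) and low in the Y-linked gene Ddx3y (2.48 and 1.04, against 145.7 to 155.7). Sex and genotype therefore cannot be told apart in any comparison of heterozygous with wild-type tissue. Het P30 replicate 2 also stood apart in choroid plexus markers, all 10 of which were highest there. Its summed marker level was 626.1 CPM, against 3.15 in Het P30 replicate 1 and 2.01 to 4.14 in the wild-type libraries. Otx2 itself had counts in that library alone (73 counts) and so could not check the genotype labels.

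Promoter windows of the 4 synthesis genes called lower at P100 are shown first, genes picked by that result. The age calls of Cyp51 and Msmo1 held under all 16 alternatives given below, and those of Mvd and Mvk each under 12 of 16. In sterol synthesis genes SREBP commonly acts together with NF-Y, the factor that binds the CCAAT box. Windows ran from 250 bases before to 50 bases after the RefSeq start site (build GRCm38.p6), 5′ to 3′ on the strand of the gene. CCAAT, or ATTGG where the box lies on the other strand, is in capitals. The windows were chr5:4104648-4104947 (minus strand) for Cyp51, chr8:64733529-64733828 (minus) for Msmo1, chr8:122443373-122443672 (minus) for Mvd and chr5:114444019-114444318 (plus) for Mvk.
Cyp51: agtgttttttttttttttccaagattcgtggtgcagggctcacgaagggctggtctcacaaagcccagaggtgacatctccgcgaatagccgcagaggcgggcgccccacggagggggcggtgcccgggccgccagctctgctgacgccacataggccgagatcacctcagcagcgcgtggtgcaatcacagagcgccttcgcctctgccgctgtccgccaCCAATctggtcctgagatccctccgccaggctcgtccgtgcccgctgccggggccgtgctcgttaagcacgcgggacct
Msmo1: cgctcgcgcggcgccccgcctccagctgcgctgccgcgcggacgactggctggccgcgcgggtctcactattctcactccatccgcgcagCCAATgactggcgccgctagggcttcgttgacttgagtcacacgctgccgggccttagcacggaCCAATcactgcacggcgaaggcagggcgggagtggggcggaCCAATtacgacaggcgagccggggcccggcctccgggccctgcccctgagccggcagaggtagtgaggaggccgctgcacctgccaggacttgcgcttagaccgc
Mvd: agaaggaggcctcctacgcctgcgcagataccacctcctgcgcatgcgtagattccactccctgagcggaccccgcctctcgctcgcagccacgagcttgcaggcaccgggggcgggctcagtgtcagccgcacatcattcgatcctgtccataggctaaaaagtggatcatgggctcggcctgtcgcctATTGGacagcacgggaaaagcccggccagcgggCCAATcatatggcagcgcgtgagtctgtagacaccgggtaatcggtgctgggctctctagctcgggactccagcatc
Mvk: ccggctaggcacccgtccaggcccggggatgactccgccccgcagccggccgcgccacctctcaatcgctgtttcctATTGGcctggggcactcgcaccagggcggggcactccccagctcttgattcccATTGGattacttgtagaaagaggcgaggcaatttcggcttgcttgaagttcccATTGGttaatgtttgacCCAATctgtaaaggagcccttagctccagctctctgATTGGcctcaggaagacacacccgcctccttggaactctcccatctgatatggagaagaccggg
The Cyp51 window held 1 CCAAT box, Msmo1 held 3, Mvd 2 and Mvk 5. RefSeq windows were found for 25 of the 31 genes. In 9 of them the start site was that of the transcript counted, in 23 it lay within 105 bases of it, and it lay 453 bases away in Pmvk and 7524 bases away in Soat1, 1 of the transport genes with a match. A CCAAT box on either strand occurred in 11 of 14 synthesis windows (78.6%), in 2 of 5 regulator windows (40%) and in 3 of 6 transport windows (50%), against 37.41% of all 32851 mouse windows of this length. Of the called genes named below, Insig1 and Srebf2 had 1 box each, and Lrp1 had none. The motif TCACNCCAC, a form of the sterol response element, matched no member window on either strand and 1.24% of all windows. Only exact matches to this form were searched. The search therefore cannot show that the windows lack sterol response elements. These letter matches describe the windows and do not show binding.

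Per kilobase of transcript, the genes differed widely in level. Apoe, the gene of apolipoprotein E, was the most abundant at 853.3 CPM per kilobase, averaged over the 6 libraries. Msmo1 followed at 56.3, then the lipoprotein receptor gene Lrp1 at 45.3, the neuronal cholesterol hydroxylase gene Cyp46a1 at 44.5 and Cyp51 at 26.0. On this scale the median gene stood at 7.44 among synthesis genes, 13.7 among regulators and 11.6 among transport genes. Fdps (1.47) and Idi1 (0.539), which act on isoprenoid intermediates, were the lowest. Their counts, with those of Fdft1 and Acat2, are uncertain, since 33.3% to 87.7% of these transcripts is near-identical to other genes. Exon overlap with another gene reached 10% or more in Fdps, Fdft1, Scap, Npc1 and Idi1. Whether the counting used strand is not given in the sources used here, so for the last 4 their own reads and those of the gene on the opposite strand cannot be separated.

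**Figure D1:**
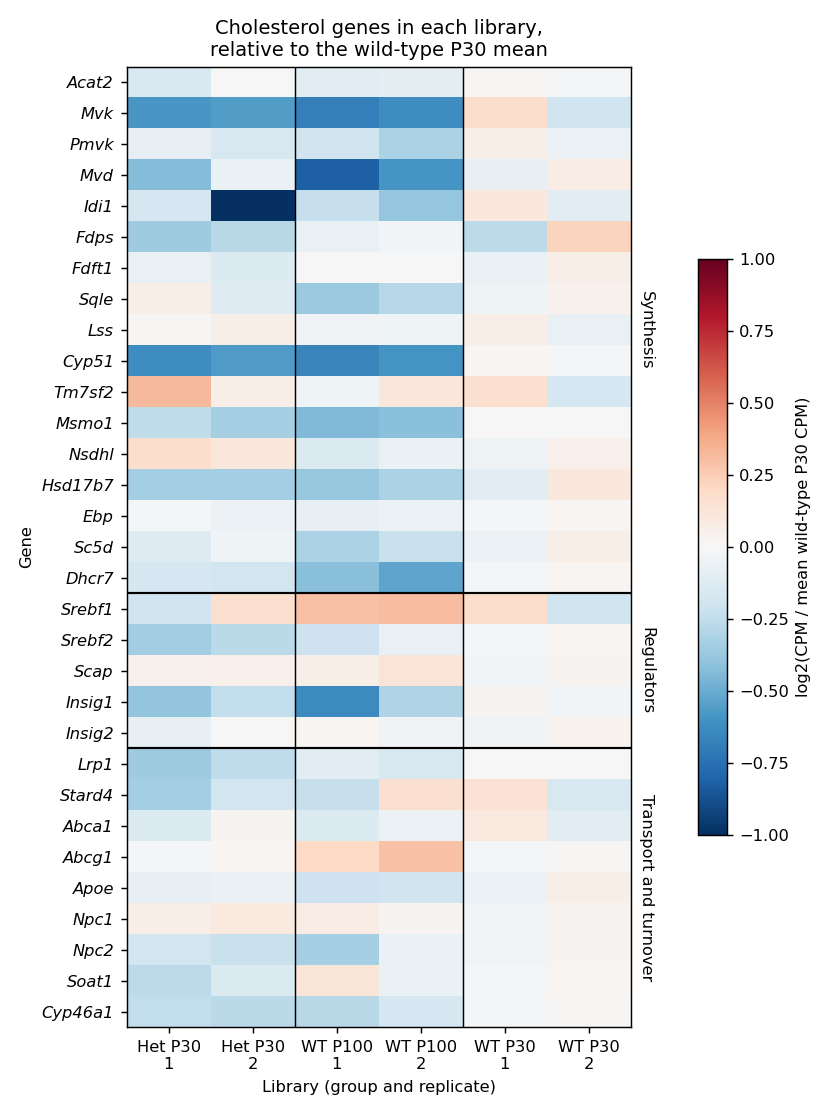
Level of each of the 31 genes (rows, in pathway order) in each of the 6 libraries (columns) as log2 of its TMM-scaled CPM over the wild-type P30 mean; blue is lower and red is higher. Cyp51, Msmo1 and Mvk are blue in both Het P30 and both WT P100 libraries. So are further rows of all roles, among them Insig1, Lrp1 and Cyp46a1. The darkest cell is Idi1 in Het P30 replicate 2, which rests on 15 counts.

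The age comparison took WT P100 over WT P30 libraries; P30 falls in the critical period of visual plasticity and P100 lies after it. Of the synthesis genes, 4 of 17 were lower at P100 and none was higher: Cyp51, Msmo1, Mvd and Mvk. Insig1 was lower among the 5 regulators. None of the 9 transport genes passed the test. In all, 5 of 31 genes were lower, where 4.54% of all tested genes were lower and 3% higher (edgeR quasi-likelihood test, Benjamini-Hochberg adjusted p under 0.05 over all 15841 genes).

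Cyp51 encodes lanosterol demethylase, which takes the first step from lanosterol towards cholesterol (ENSMUSG00000001467, mm10 chromosome 5, 4081145 to 4104746, minus strand, 10 exons). It had 84.2 and 87.6 CPM at P100, against 134.2 and 131.2 CPM at P30. The ages were clearly apart, with at most 3.37 CPM between libraries of 1 age. The means were 85.9 ± 2.39 CPM at P100 and 132.7 ± 2.14 CPM at P30 (SD, n = 2 each), 1.55-fold lower, with a log2 difference of -0.63 (SE 0.07, edgeR adjusted p = 0.000217).

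Msmo1 encodes the methylsterol monooxygenase that acts soon after Cyp51 on the methyl groups of the sterol (ENSMUSG00000031604, chromosome 8, 64718227 to 64733578, minus strand, 5 exons). It had 134.3 and 137.0 CPM at P100, against 183.1 and 182.2 CPM at P30. The spread within each age was small beside the gap between ages. The level was 1.35-fold lower at P100 (log2 difference -0.43, SE 0.07, edgeR adjusted p = 0.00216). The calls of Cyp51 and Msmo1 held under all 16 alternatives tried.

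Mvd and Mvk act early, on mevalonate and its phosphates. Mvd, the decarboxylase that yields isopentenyl diphosphate (ENSMUSG00000006517, chromosome 8, 122433601 to 122443422, minus strand, 10 exons), had 9.05 and 10.6 CPM at P100, against 15.1 and 16.8 CPM at P30. It was 1.63-fold lower (log2 difference -0.71, SE 0.16, edgeR adjusted p = 0.0175). Mvk, mevalonate kinase (ENSMUSG00000041939, chromosome 5, 114444294 to 114460584, plus strand, 10 exons), had 10.1 and 10.6 CPM at P100, against 18.4 and 14.2 CPM at P30. The P30 libraries of Mvk differed from each other, and both lay above both P100 libraries. Mvk was 1.56-fold lower (log2 difference -0.64, SE 0.15, edgeR adjusted p = 0.022). Both genes rest on 120 to 241 counts per library, and their calls were not stable. Mvd was not called without WT P30 replicate 2 (edgeR adjusted p = 0.1), WT P100 replicate 1 (0.131) or WT P100 replicate 2 (0.061), and Mvk was not called without WT P30 replicate 1 (0.142), WT P100 replicate 1 (0.119) or WT P100 replicate 2 (0.105). Mvk was also not called by DESeq2 (adjusted p = 0.0602), nor Mvd with counts summed over transcripts (edgeR adjusted p = 0.0563).

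Insig1 encodes a protein that retains SCAP in the endoplasmic reticulum and is itself a target of SREBP (ENSMUSG00000045294, chromosome 5, 28071363 to 28078662, plus strand, 5 exons). It had 28.2 and 35.6 CPM at P100, against 44.6 and 43.0 CPM at P30. Both P100 libraries were lower than both P30 libraries, although the P100 libraries differed from each other by 7.41 CPM. The log2 difference was -0.46 (SE 0.12, edgeR adjusted p = 0.0301), 1.38-fold lower. The call was lost without WT P30 replicate 1 (adjusted p = 0.0969), WT P30 replicate 2 (0.0786) or WT P100 replicate 1 (0.208, with a log2 difference of -0.30), and with counts summed over transcripts (0.0826).

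The other 13 synthesis genes did not pass the test. Among these Hsd17b7, which acts with Nsdhl after Msmo1, had 31.9 and 33.4 CPM at P100, against 38.5 and 44.7 CPM at P30 (log2 difference -0.36, SE 0.10, edgeR adjusted p = 0.0547). Dhcr7, a reductase of the last steps, had 10.5 and 9.68 CPM at P100, against 13.8 and 14.2 CPM at P30 (-0.47, SE 0.14, edgeR adjusted p = 0.0552). Sqle, squalene epoxidase, had 38.7 and 40.9 CPM at P100, against 48.3 and 51.4 CPM at P30 (-0.33, SE 0.10, edgeR adjusted p = 0.0631). These genes were picked after their values were seen, as the ones nearest to the threshold. In contrast Lss, lanosterol synthase, stood at 48.6 and 48.3 CPM at P100 and 52.2 and 47.3 CPM at P30, and Ebp, a sterol isomerase, had a log2 difference of -0.07 (SE 0.12). In 13 of the 17 synthesis genes both P100 libraries were lower than both P30 libraries, and in none were both higher. Among the 9 transport genes both were lower in 4 and higher in 1, and among the 5 regulators lower in 2 and higher in 2. Over all tested genes both P100 libraries were lower in 25.7% and higher in 25.5%.

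**Figure D2:**
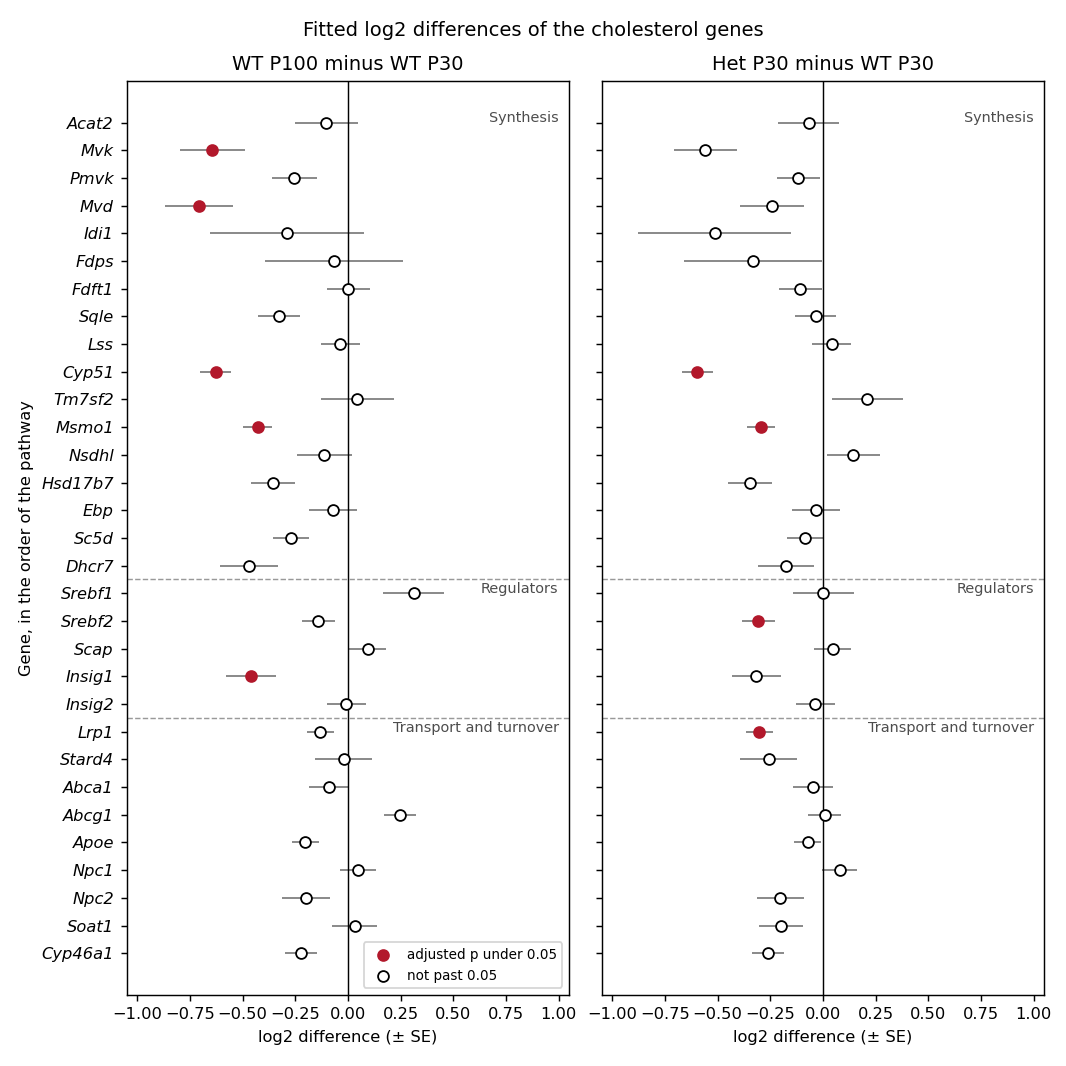
Fitted log2 difference of each gene (points, with bars of ± 1 SE) for WT P100 minus WT P30 (left) and Het P30 minus WT P30 (right), with filled points for an adjusted p under 0.05. The filled points are 5 genes on the left and 4 on the right, all below 0, and both panels share the WT P30 libraries.

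Srebf2, the transcription factor that drives most sterol synthesis genes, had 95.5 and 104.8 CPM at P100, against 108.7 and 111.7 CPM at P30 (log2 difference -0.14, SE 0.08, edgeR adjusted p = 0.31). Srebf1, which acts more on fatty acid genes, had 27.1 and 27.4 CPM at P100, against 24.9 and 19.2 CPM at P30 (0.31, SE 0.15, edgeR adjusted p = 0.219). Scap and Insig2 had log2 differences of 0.09 and -0.01.

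Transport genes lay closer to 0. Abcg1, which exports cholesterol to lipoproteins, had 92.4 and 98.7 CPM at P100, against 79.6 and 81.2 CPM at P30. Both P100 libraries were the higher ones, with a log2 difference of 0.25 (SE 0.08, edgeR adjusted p = 0.0685). Apoe had 1108 and 1114 CPM at P100, against 1226 and 1330 CPM at P30, a log2 difference of -0.20 (SE 0.07, edgeR adjusted p = 0.0757). Apoe was called lower under 5 of 16 alternatives. Among them were DESeq2 (adjusted p = 0.0498), limma-voom (0.0396), and edgeR with no filter (0.0119) or with counts summed over transcripts (0.0395). Abcg1 was called higher under 1 of 16, edgeR with library totals alone (adjusted p = 0.035). Cyp46a1 had 86.4 and 93.5 CPM at P100, against 104.3 and 105.5 CPM at P30 (log2 difference -0.22, SE 0.08, edgeR adjusted p = 0.0959). Lrp1 had a log2 difference of -0.13 (SE 0.06). Those of Abca1, a cholesterol exporter, Npc1 and Npc2, which release cholesterol from lysosomes, Stard4, a sterol carrier, and Soat1, which esterifies cholesterol for storage, ran from -0.20 to 0.05. At an unadjusted p under 0.05 there were 3 of 9 transport genes, 9 of 17 synthesis genes and 2 of 5 regulators, against 22.7% of all tested genes.

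The median log2 difference with age was -0.27 over the 17 synthesis genes, -0.01 over the 5 regulators and -0.09 over the 9 transport genes, against 0.00 over all genes tested. No test was made between the roles. The count of 5 called genes fell to 3 without WT P30 replicate 2, to 2 without WT P100 replicate 1 and to 3 without WT P100 replicate 2, and was 9 with no filter on low counts.

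The genotype comparison took Het P30 over WT P30 libraries, with age held at the critical period. Cyp51 and Msmo1 were lower in heterozygotes among the 17 synthesis genes, Srebf2 was lower among the 5 regulators and Lrp1 among the 9 transport genes. None was higher. These 4 of 31 genes compare with 2.32% of all tested genes lower and 0.903% higher (edgeR quasi-likelihood test, adjusted p under 0.05). The comparison uses the same WT P30 libraries as the age comparison, so low values shared by both are not separate results.

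Cyp51 had 86.1 and 89.5 CPM in Het P30 libraries, against 134.2 and 131.2 CPM in WT P30 libraries. The groups did not overlap, and the mean was 87.8 ± 2.39 CPM in heterozygotes and 132.7 ± 2.14 CPM in wild type (SD, n = 2 each). It was 1.51-fold lower (log2 difference -0.60, SE 0.07, edgeR adjusted p = 0.000531) and was called under all 16 alternatives. Msmo1 had 152.9 and 144.8 CPM in Het P30 libraries, against 183.1 and 182.2 CPM in WT P30 libraries. It was 1.23-fold lower (log2 difference of -0.295, SE 0.07, edgeR adjusted p = 0.029), but the call was lost under 8 of 16 alternatives, among them the removal of any 1 of the 6 libraries (adjusted p from 0.0504 without WT P100 replicate 2 to 0.218 without Het P30 replicate 2).

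Srebf2 (ENSMUSG00000022463, chromosome 15, 82147181 to 82205379, plus strand, 19 exons) had 86.8 and 91.5 CPM in Het P30 libraries, against 108.7 and 111.7 CPM in WT P30 libraries. Each heterozygous library was lower than each wild-type one (log2 difference -0.31, SE 0.08, edgeR adjusted p = 0.048, 1.24-fold lower). The call was lost under 10 of 16 alternatives, including DESeq2 (adjusted p = 0.0526) and the removal of any 1 of the 6 libraries (0.061 without WT P100 replicate 2 to 0.377 without Het P30 replicate 1).

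Lrp1 encodes a large endocytic receptor that takes up lipoproteins carrying apolipoprotein E (ENSMUSG00000040249, chromosome 10, 127538161 to 127621148, minus strand, 89 exons). It had 582.6 and 623.0 CPM in Het P30 libraries, against 741.7 and 745.8 CPM in WT P30 libraries. The wild-type libraries were nearly equal and the heterozygous libraries were both lower, 1.23-fold on average (log2 difference -0.30, SE 0.06, edgeR adjusted p = 0.02). The call was lost without WT P30 replicate 2 (adjusted p = 0.0629), Het P30 replicate 1 (0.27) or Het P30 replicate 2 (0.0533). It was also lost with counts summed over transcripts (edgeR adjusted p = 0.0643).

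**Figure D3:**
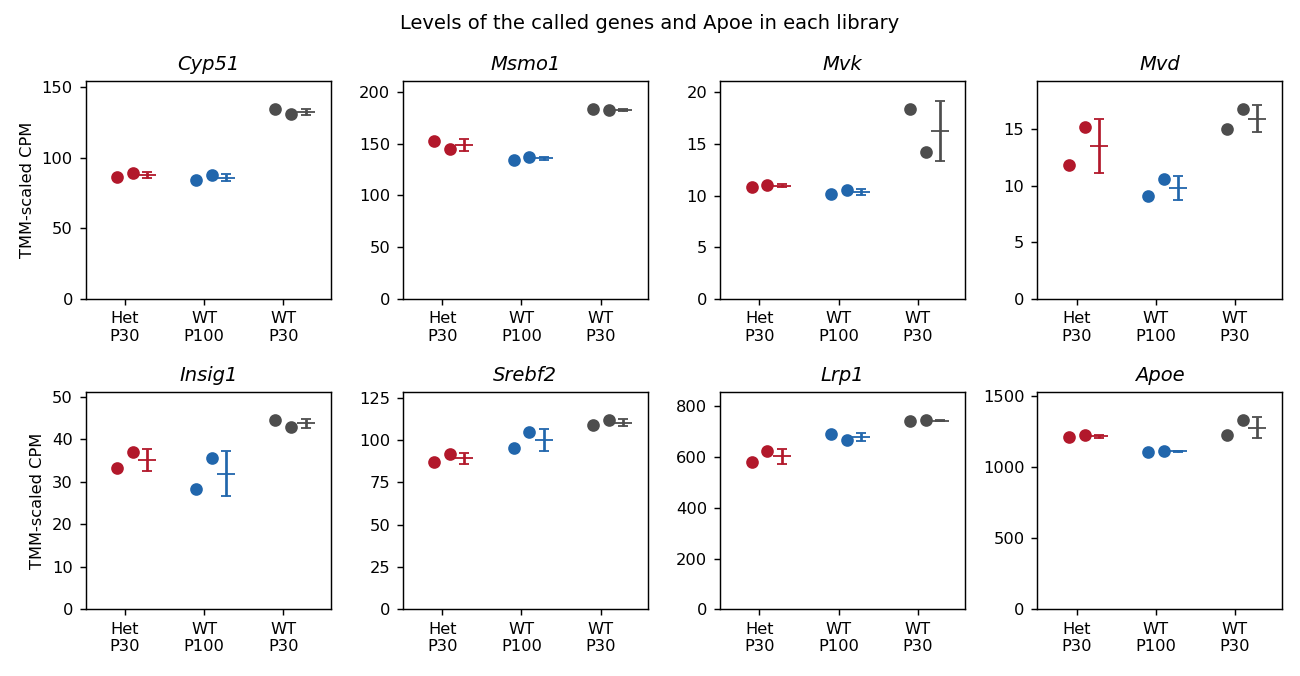
Per-library levels (points) in TMM-scaled CPM of the 7 genes called in a comparison with WT P30, and of Apoe, in the Het P30, WT P100 and WT P30 groups, with group mean and SD (bar and whiskers, n = 2). Axes start at 0; for Cyp51 the 4 Het P30 and WT P100 libraries lie between 84.2 and 89.5 CPM and the WT P30 libraries at 131.2 and 134.2 CPM.

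The remaining 15 synthesis genes did not pass in heterozygotes. Mvk had 10.9 and 11.1 CPM in Het P30 libraries, against 18.4 and 14.2 CPM in WT P30 libraries (log2 difference -0.56, SE 0.15, edgeR adjusted p = 0.0598). It was called without WT P30 replicate 2 (adjusted p = 0.0431). Hsd17b7 had 32.8 CPM in both Het P30 libraries, against 38.5 and 44.7 CPM in WT P30 libraries (-0.35, SE 0.10, edgeR adjusted p = 0.0898). It was called without WT P30 replicate 1 (0.0481). Mvd overlapped between the groups, with 11.8 and 15.2 CPM in Het P30 libraries and 15.1 and 16.8 CPM in WT P30 libraries (log2 difference -0.24, SE 0.15). Sqle overlapped too, with 51.9 and 45.6 CPM in Het P30 libraries and 48.3 and 51.4 CPM in WT P30 libraries (-0.04, SE 0.10). The X-linked synthesis genes Nsdhl and Ebp had log2 differences of 0.14 (SE 0.13) and -0.03 (SE 0.11). Groups did not overlap, with heterozygotes lower, for 9 of the 17 synthesis genes and 6 of the 9 transport genes, against 24.4% of all tested genes (24.5% higher).

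Among the other transport genes, Cyp46a1 had 88.3 and 87.0 CPM in Het P30 libraries, against 104.3 and 105.5 CPM in WT P30 libraries (log2 difference -0.26, SE 0.08, edgeR adjusted p = 0.0848). Apoe had 1208 and 1222 CPM in Het P30 libraries and 1226 and 1330 CPM in WT P30 libraries (-0.07, SE 0.06). Abcg1 had 79.96 and 81.7 CPM in Het P30 libraries and 79.6 and 81.2 CPM in WT P30 libraries (0.01, SE 0.08). The median log2 difference with genotype was -0.12 over synthesis genes, -0.04 over regulators and -0.20 over transport genes, against 0.00 over all genes tested. The count of 4 called genes fell to 1 without Het P30 replicate 1 or without Het P30 replicate 2, and to 2 without WT P30 replicate 2, WT P100 replicate 1 or WT P100 replicate 2. It was 2 with library totals alone and 1 with counts summed over transcripts.

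The third comparison set Het P30 directly against WT P100, groups that differ in genotype, age and sex-linked transcripts. None of the 31 genes passed the edgeR test, where 2.66% of all tested genes were lower and 2.44% higher in Het P30. DESeq2 and limma-voom also called none, and edgeR with no filter on low counts called Mvd. At an unadjusted p under 0.05 there were 7 of 31 genes, a share close to the 19.4% of all tested genes. For Cyp51 the log2 difference was 0.03 (95% interval -0.13 to 0.19), and for Mvk it was 0.09 (-0.25 to 0.42). For Msmo1 it was 0.13 (-0.01 to 0.28) and for Insig1 0.14 (-0.11 to 0.40). A p-value that misses the threshold does not show that levels were equal, and these intervals bound the differences for each gene on its own.

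Larger differences in this comparison were found for Mvd, with 11.8 and 15.2 CPM in Het P30 libraries and 9.05 and 10.6 CPM in WT P100 libraries (log2 difference 0.47, 95% interval 0.12 to 0.81, edgeR adjusted p = 0.12). Sqle had 51.9 and 45.6 CPM in Het P30 libraries and 38.7 and 40.9 CPM in WT P100 libraries (0.29, 0.08 to 0.51, edgeR adjusted p = 0.115). Abcg1 was lower in heterozygotes, with 79.96 and 81.7 CPM in Het P30 libraries and 92.4 and 98.7 CPM in WT P100 libraries (-0.24, -0.41 to -0.08, edgeR adjusted p = 0.0938). Lrp1 had 582.6 and 623.0 CPM in Het P30 libraries and 690.4 and 666.9 CPM in WT P100 libraries (-0.17, -0.31 to -0.03, edgeR adjusted p = 0.155). Srebf1 had 19.2 and 24.6 CPM in Het P30 libraries and 27.1 and 27.4 CPM in WT P100 libraries (-0.31, -0.62 to -0.01, edgeR adjusted p = 0.251), and Srebf2 differed by -0.17 (edgeR adjusted p = 0.259). The median difference was 0.09 over synthesis genes, -0.05 over regulators and -0.04 over transport genes. Het P30 was higher without overlap in 9 of 17 synthesis genes and lower in 2, where 25% of all tested genes were lower and 25.4% higher. Of the 9 transport genes it was higher in 1 and lower in 3, and of the 5 regulators higher in 0 and lower in 3.

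Summed over genes, synthesis transcripts stood at 605.1 and 598.1 CPM in Het P30 libraries and 547.4 and 562.1 CPM in WT P100 libraries, against 704.4 and 709.2 CPM in WT P30 libraries. Relative to the WT P30 mean these were 85.6% and 84.6% in heterozygotes and 77.4% and 79.5% at P100. Cyp51 and Msmo1, the most abundant of the list, make up a large share of the sum. Without both, a trimming made after their values were seen, the other 15 genes stood at 93.5% and 92.9% in heterozygotes and at 84.0% and 86.2% at P100. Transport genes stood at 89.0% and 91.9% in heterozygotes and at 90.1% and 90.4% at P100, a sum held mostly by Apoe and Lrp1.

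Markers of cell types that make or move cholesterol differed between the same groups. The 15 myelinating oligodendrocyte markers stood at 72.9% and 71.4% of the WT P30 mean in heterozygotes and at 54.9% and 46.9% at P100. Of these 15, 12 were lower in Het P30 (log2 differences of all 15 from -0.81 to -0.36) and 12 were lower at P100 (-1.61 to -0.12), and none was at 0. Between Het P30 and WT P100, 8 of the 15 were higher in heterozygotes (log2 differences of all 15 from -0.37 to 0.94, with 4 below 0). The 10 precursor and newly formed oligodendrocyte markers stood at 85.7% and 93.4% in heterozygotes and at 70.5% and 64.9% at P100, with 2 and 7 of them lower.

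The 10 astrocyte markers stood at 93.1% and 94.7% of the WT P30 mean in heterozygotes and at 93.4% and 91.5% at P100, with 2 lower in heterozygotes (Aqp4 and Gfap) and 3 lower at P100 (Aqp4, Gja1 and S100b). Microglia markers stood at 89.9% and 99.6% in heterozygotes and at 83.5% and 79.5% at P100. Endothelial and mural markers stood at 91.2% and 94.2% in heterozygotes and at 81.6% and 84.8% at P100. The 10 neuron markers stood at 98.6% and 97.8% in heterozygotes and at 102% and 103% at P100, a sum held mostly by Snap25 and Syt1. Of these 10, Slc17a7, Syp and Stmn2 were lower at P100 than at WT P30 and higher in Het P30 than at WT P100. Snap25 was called lower in Het P30 than at WT P100 by DESeq2 and limma-voom, though not by edgeR. None of the 10 passed for Het P30 against WT P30 by edgeR, DESeq2 or limma-voom. At an unadjusted p under 0.05 there were 3 of them, against 17.3% of all tested genes. The 8 meningeal markers summed to 63.5% and 71.9% in heterozygotes and to 99.2% and 113% at P100, but single genes did not follow the sums. In heterozygotes 4 of the 8 had log2 differences below 0 and 4 above (median -0.05). Only Ptgds, a prostaglandin synthase gene, passed there, as lower (log2 difference -0.94, edgeR adjusted p = 0.000646). At P100 5 were below 0 and 3 above (median -0.7), and only Igf2 passed, as lower (edgeR adjusted p = 0.0219). The part of these markers in the cholesterol gene differences was not tested, and in bulk tissue fewer cells of a type and less RNA per cell cannot be told apart. In Het P30 replicate 1, where choroid plexus markers summed to 3.15 CPM, Cyp51 stood at 86.1 CPM, against 89.5 CPM in replicate 2. In the same order Msmo1 stood at 152.9 and 144.8 CPM, Srebf2 at 86.8 and 91.5 CPM, and Lrp1 at 582.6 and 623.0 CPM. The part of choroid plexus tissue in these values was not tested.

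**Figure D4:**
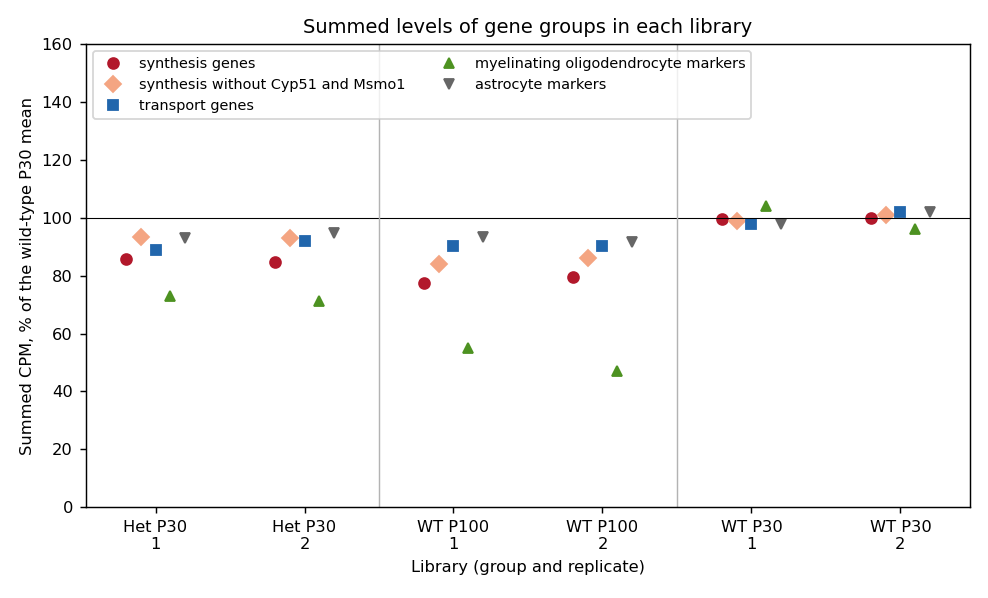
Summed level of each gene group in each library as a percentage of its wild-type P30 mean (vertical axis) for the Het P30, WT P100 and WT P30 libraries. Synthesis genes lie at 84.6% to 85.6% in Het P30 and 77.4% to 79.5% in WT P100, above the myelinating oligodendrocyte markers and below the astrocyte markers in all 4 of these libraries.

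In 3 further lists of pathway genes, the counts past the test can be read against 4.54% of all tested genes lower and 3% higher with age, and 2.32% lower and 0.903% higher with genotype. None of 19 genes of the isoprenoid branch and sterol sensing, which include the NF-Y subunits and the proteases that activate SREBP, passed in any of the 3 comparisons by edgeR, DESeq2 or limma-voom. At an unadjusted p under 0.05 there were 3 of them for Het P30 against WT P30, 2 for WT P100 against WT P30 and 1 for Het P30 against WT P100, where all tested genes stood at 17.3%, 22.7% and 19.4%. The list medians were 0.05 for both comparisons with WT P30 and -0.01 for the third. Among 13 fatty acid synthesis genes Scd1, a stearoyl-CoA desaturase and SREBP1 target, was lower in both comparisons with WT P30, with 139.8 and 133.5 CPM in Het P30 libraries and 143.0 and 129.9 CPM in WT P100 libraries, against 175.1 and 169.6 CPM in WT P30 libraries. Its log2 difference was -0.33 for Het P30 (SE 0.07, edgeR adjusted p = 0.0232) and -0.34 for WT P100 (SE 0.07, adjusted p = 0.0147). The calls were lost without either WT P30 library (lowest adjusted p = 0.0504), without either heterozygous library for Het P30, and without WT P100 replicate 2 for age. The Het P30 call was also lost with counts summed over transcripts (0.0788). Scd2, the brain's abundant desaturase gene, had a log2 difference of -0.255 at P100 (SE 0.07, edgeR adjusted p = 0.0546) and was called lower there by DESeq2 and limma-voom.

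Of 25 genes of oxysterol sensing, lipoproteins and sterol trafficking, 23 were tested. Rxra, the partner receptor of the oxysterol-sensing LXRs, was higher at P100 than in either P30 group, with 18.2 and 16.8 CPM in Het P30 libraries and 26.0 and 25.1 CPM in WT P100 libraries, against 18.2 and 16.3 CPM in WT P30 libraries. The log2 difference was 0.57 for WT P100 against WT P30 (SE 0.12, edgeR adjusted p = 0.0109) and -0.55 for Het P30 against WT P100 (SE 0.12, adjusted p = 0.0147). The first call was lost without WT P30 replicate 2 or either WT P100 library (adjusted p up to 0.0727), and the second without either library of the groups compared (up to 0.119). Vldlr, a lipoprotein receptor gene, was lower at P100, and Apod, an apolipoprotein gene, was lower in heterozygotes; the Vldlr call was lost without any 1 of the 4 libraries compared, and the Apod call under 10 of 16 alternatives, limma-voom (adjusted p = 0.0502) among them.

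The authors' deposited tables of comparisons tested each transcript. The share of all transcripts past the threshold in them was not computed. The counts below therefore have no background to be read against. For the transcripts used here, the authors' deposited table for WT P100 against WT P30 had 3 of 31 lower at an adjusted p under 0.05: Cyp51 (log2 change -0.63, adjusted p = 1.88e-05), Msmo1 (-0.43, adjusted p = 0.0105) and Mvd (-0.70, adjusted p = 0.0423). Insig1 (adjusted p = 0.0765) and Mvk (adjusted p = 0.217) were not past it in the authors' deposited table. For heterozygous against wild-type P30, Cyp51 was the 1 transcript of these 31 past it in the authors' deposited table (log2 change -0.59, adjusted p = 5.95e-06), with an adjusted p = 0.069 for Lrp1, 0.152 for Msmo1 and 0.175 for Srebf2. Of 116 transcripts of these genes not used here, 1 was past it for heterozygous against wild-type P30 in the authors' deposited table. It was an Lrp1 transcript (log2 change -0.61, adjusted p = 0.0426). The other unused Lrp1 transcripts were not past it (lowest adjusted p = 0.119 in the authors' deposited table). For WT P100 against WT P30, 3 of the 116 were past it, all of them lower Msmo1 transcripts (adjusted p = 0.00422 to 0.0207 in the authors' deposited table). Unused Cyp51 transcripts were past it in neither comparison. Their lowest adjusted p in the authors' deposited tables was 0.147 for age and 0.0541 for genotype.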

How the data were processed

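Total RNA of hand-dissected layer IV was sequenced, per the labels' protocols. The deposited values were raw read counts for each of 95533 transcripts per library, per the file headers and the values (30651483 to 42374860 counts in all). Bowtie, HTSeq, DESeq 1.8.3 and mm10 are named in the submitters' processing notes; settings and strand use are not given in the sources used here. Comparison tables deposited by the authors gave a log2 fold change and an adjusted p-value per transcript, per the file headers, and were used only where named.

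Reads were counted in several isoforms of a gene (second to first transcript, median count ratio 0.883), so each gene was read from its transcript with the highest total. Transcripts without a gene held 13.96% of counts and were left out. After filterByExpr (at least 10 counts, 15 in total) and TMM scaling, the quasi-likelihood test of edgeR 4.0.16 in R 4.3.3 was fitted over 3 groups and 6 libraries, which leaves 3 residual degrees of freedom. P-values were adjusted by Benjamini-Hochberg over all 15841 genes, with a threshold of 0.05. CPM are counts relative to the scaled library total. The number of counts limits the precision, and the least abundant gene had 15.

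Groups came from the labels. The genes, lists and tests were chosen with earlier results of these data known. Values per library are given for genes past the threshold in a comparison, for the 2 genes of a role with the smallest p where none passed, and for others named as picked after their values were seen (Hsd17b7, Dhcr7, Sqle, Lss, Cyp46a1 and Mvk or Mvd where not called). Transcript lengths and exon overlaps came from GENCODE M21, near-identical stretches (95% identity over 50 bases) from blastn, and promoters from RefSeq. Alternatives were RLE, upper-quartile and no scaling factors, no filter, CPM of 1 in 2 libraries, DESeq2 1.42.0, limma-voom (limma 3.58.1), only the 4 libraries compared, counts summed over transcripts, a replicate block and leaving out each library.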

Additional observations from a re-analysis of the deposited data

How the results depend on the processing

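Of 1485 values of single genes recomputed under 16 alternatives, 1436 kept their side of the threshold, 34 lost the call and 15 gained one. The sign changed in 52 values, all of genes not called in either fit, and in 0 values that were called in 1 of them. DESeq2 gave no adjusted p for 3 further values (Idi1 and Fdps). Calls of all genes numbered 1194 for WT P100 against WT P30, 511 for Het P30 against WT P30 and 808 for Het P30 against WT P100. With no filter on low counts they were 1860, 1120 and 1473, and with counts summed over transcripts 791, 263 and 502. Leaving out 1 library gave 351 to 1078, 184 to 473 and 255 to 942. Members called were 5, 4 and 0. With no filter they were 9 for age and 1 (Mvd) for Het P30 against WT P100, and for genotype 2 with library totals alone and 1 with counts summed over transcripts. Leaving out 1 library gave 2 to 5 for age, 1 to 3 for genotype and 0 for Het P30 against WT P100. With library totals alone, 560 genes were lower and 707 higher at P100 (719 and 475 with TMM), and 319 lower and 211 higher in heterozygotes (368 and 143 with TMM). Deviations from group means correlated at -0.004, 0.1 and 0 between same-numbered libraries of different groups. With 2 libraries a group, these correlations cannot settle whether replicate numbers pair the libraries. With the replicate block, 1320, 642 and 988 genes were called, and 6, 4 and 0 members; the added member was Hsd17b7 for age (adjusted p = 0.0496). The cause of these changes was not tested. With 2 pooled libraries a group and 15 to 33 counts, Idi1 and Fdps had standard errors of 0.33 to 0.38 on the log2 scale, so that differences of their size were not detectable at this depth.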
